A study of Mus musculus with 12 samples.

Results

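The genes described here are 7 members of the Ets family of transcription factors, namely Elf5, Elf3, Ehf, Spdef, Elf1, Ets1 and Ets2, measured in mouse prostate. They are 7 of 18194 genes measured on the arrays, and each was read from its brightest probe set over the 12 arrays, among probe sets annotated to that symbol alone. The set was selected on results of these data, in that the fall of Elf5 in the lateral lobe was known, so the lateral values of Elf5 and its comparison of lobes are given as a description with no test. The other 6 are listed as its relatives, and that list was drawn up with earlier results of these data known.

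Total RNA of ventral or lateral prostate was hybridised to single-colour Affymetrix arrays at 16 weeks of age. The mice were wild type or carried a knockout of Med1, a subunit of the Mediator complex that links transcription factors to RNA polymerase II. Each of the 4 groups (wild-type ventral, knockout ventral, wild-type lateral and lateral labelled knockout) had 3 arrays. The sources used here do not give the strain, the deleted part of Med1, the cells in which it was deleted, or whether each array stands for its own animal. The p-values below therefore speak of the spread between arrays, part or all of which may be technical.

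Ets factors share a winged helix-turn-helix domain that binds DNA around a GGAA core, and members differ in the flanking bases they prefer, in their partners and in the cells that make them. Elf3, Elf5 and Ehf form the epithelium-specific branch. Elf5 is best known from the mammary gland, where it drives milk-producing cells downstream of prolactin, and from trophoblast stem cells. Spdef, first described as a prostate-derived factor that binds the androgen receptor, directs the maturation of mucus-secreting goblet cells in gut and airway. Elf1 is broadly expressed, and Ets1 and Ets2 are targets of Ras and MAP kinase signalling, with Ets1 made chiefly in endothelium, lymphocytes and stroma.

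The checks of the arrays that bear on these genes were as follows. Values are log2 RMA signals, so a difference of 1 is a doubling, and the level of one gene cannot be set against that of another, since each is read by other probes. Med1 itself averaged 9.43 in wild-type and 8.86 in knockout ventral arrays, a difference of -0.57 ± 0.12 (SE, limma adjusted p = 0.0119), with 4 of 7 probe sets called lower. In the lateral lobe it averaged 8.52 and 8.39, a difference of -0.13 ± 0.12 (limma adjusted p = 0.622), with 0 of 7 probe sets called and 1 at an unadjusted p under 0.05. Those lateral arrays are therefore called labelled knockout. When the values of each array were sorted, arrays of one lobe nearly coincided (median range 0.0493 for ventral and 0.0786 for lateral), while the 12 together did not (0.388), as when RMA is run on each lobe by itself. Lobe and run cannot be told apart. Genotypes were compared within a lobe. WT_VP replicate 3 and KO_LP replicate 3 stood apart from their groups on seminal vesicle genes. Genotype calls of the members, counts of called genes and the lateral seminal vesicle count are given with and without them. The correlations between genes and the interaction calls of linked genes are given only with them. The luminal markers of prostate epithelium (keratins, adhesion genes and the factors Foxa1 and Hoxb13) were bright in all groups, with an array mean over 8 measured markers of 12.07 to 12.17 in ventral and 11.29 to 11.39 in lateral arrays, and limma called 0 of 8 in either lobe (2 at an unadjusted p under 0.05 in each).

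Because Elf5 and Spdef are the members that passed the ventral test, their promoter windows are shown first, 250 bases before to 50 bases after the start of transcription, from RefSeq on GRCm38.p6. Capitals mark the Ets core, GGAA, or its complement TTCC on the strand printed. RefSeq gives Elf5 both an upstream start (chr2:103411848-103412147, plus strand) and a downstream one (chr2:103423818-103424117, plus strand), and Spdef a single one (chr17:27728902-27729201, minus strand).
Elf5, upstream start: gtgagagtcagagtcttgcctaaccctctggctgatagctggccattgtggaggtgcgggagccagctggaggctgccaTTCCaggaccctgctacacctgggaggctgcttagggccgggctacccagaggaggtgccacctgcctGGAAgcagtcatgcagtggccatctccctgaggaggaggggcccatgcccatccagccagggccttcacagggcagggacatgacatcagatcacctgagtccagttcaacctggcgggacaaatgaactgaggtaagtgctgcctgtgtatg
Elf5, downstream start: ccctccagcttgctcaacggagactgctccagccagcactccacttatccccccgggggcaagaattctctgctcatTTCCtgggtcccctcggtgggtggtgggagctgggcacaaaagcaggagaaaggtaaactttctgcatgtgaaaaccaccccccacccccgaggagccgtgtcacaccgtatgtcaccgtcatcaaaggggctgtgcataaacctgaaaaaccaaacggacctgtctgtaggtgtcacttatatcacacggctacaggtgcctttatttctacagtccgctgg
Spdef: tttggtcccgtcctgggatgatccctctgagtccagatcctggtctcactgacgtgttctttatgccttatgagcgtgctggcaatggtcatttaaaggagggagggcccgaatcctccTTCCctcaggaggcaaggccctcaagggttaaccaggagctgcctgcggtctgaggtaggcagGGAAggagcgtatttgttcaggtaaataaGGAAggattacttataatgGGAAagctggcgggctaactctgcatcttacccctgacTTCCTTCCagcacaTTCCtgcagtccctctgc
The upstream Elf5 window holds 2 cores, the downstream one holds 1, and the Spdef window holds 7. The core is short, and 96.0% of 32851 RefSeq windows of the same length hold it on either strand, with a median of 3. The longer form CCGGAA, which contains the core, occurs in 14.9% of windows and in 0 of the 7 windows found for the members. Windows were found for 5 of the 7 members, and for neither Ehf nor Ets1. The nuclear receptor half-site AGGTCA is in 16.3% of windows and in 2 of 7 member windows, both of Elf1, and the androgen receptor half-site AGAACA is in 19.0% of windows and in 1 of 7, that of Spdef. These matches on either strand describe letters only, not binding.

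Elf5 was the member with the widest range of signal. In the ventral lobe it read 5.49, 5.42 and 5.34 in the 3 wild-type arrays and 4.47, 4.79 and 5.01 in the 3 knockout arrays. Each ventral knockout array lay below each wild-type array. The difference was -0.66 ± 0.13 (SE; 95% interval -0.93 to -0.38), a fall of 1.58-fold that passed the test (limma adjusted p = 0.00582). It held with each of the 12 arrays left out in turn, at limma adjusted p from 0.00234 to 0.0264. Leaving out a lateral array kept the difference at -0.66 and altered only the shared estimate of error, so those fits are a weak check. The signal is dim, however: the lower quartile of all probe sets, used here as a mark of low signal and chosen after the values were seen, was 4.73 in ventral arrays, against a knockout mean of 4.76. A second Elf5 probe set read 4.84 in wild-type and 4.65 in knockout ventral tissue, the latter under that mark, and its difference of -0.19 ± 0.17 did not pass (limma adjusted p = 0.544). With both probe sets averaged the difference was -0.43 (limma adjusted p = 0.0422).

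In the lateral lobe Elf5 stood far higher in wild type, at 9.55, 9.53 and 9.85. The lateral arrays labelled knockout read 5.76, 5.64 and 5.77. These groups were separated by a gap of several units, and the arrays labelled knockout lay close to the wild-type ventral arrays. The difference was -3.92 ± 0.13 (SE), or 15.1-fold, and the second probe set gave -3.27, from 8.56 to 5.29. Leaving out 1 array at a time moved the first value between -3.98 and -3.82. As the gene was chosen for this fall, it carries no test. The genotype difference was larger in lateral than in ventral tissue by 3.26 log2 units, also untested, with the ventral value itself close to the floor of the signal.

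**Figure D1:**
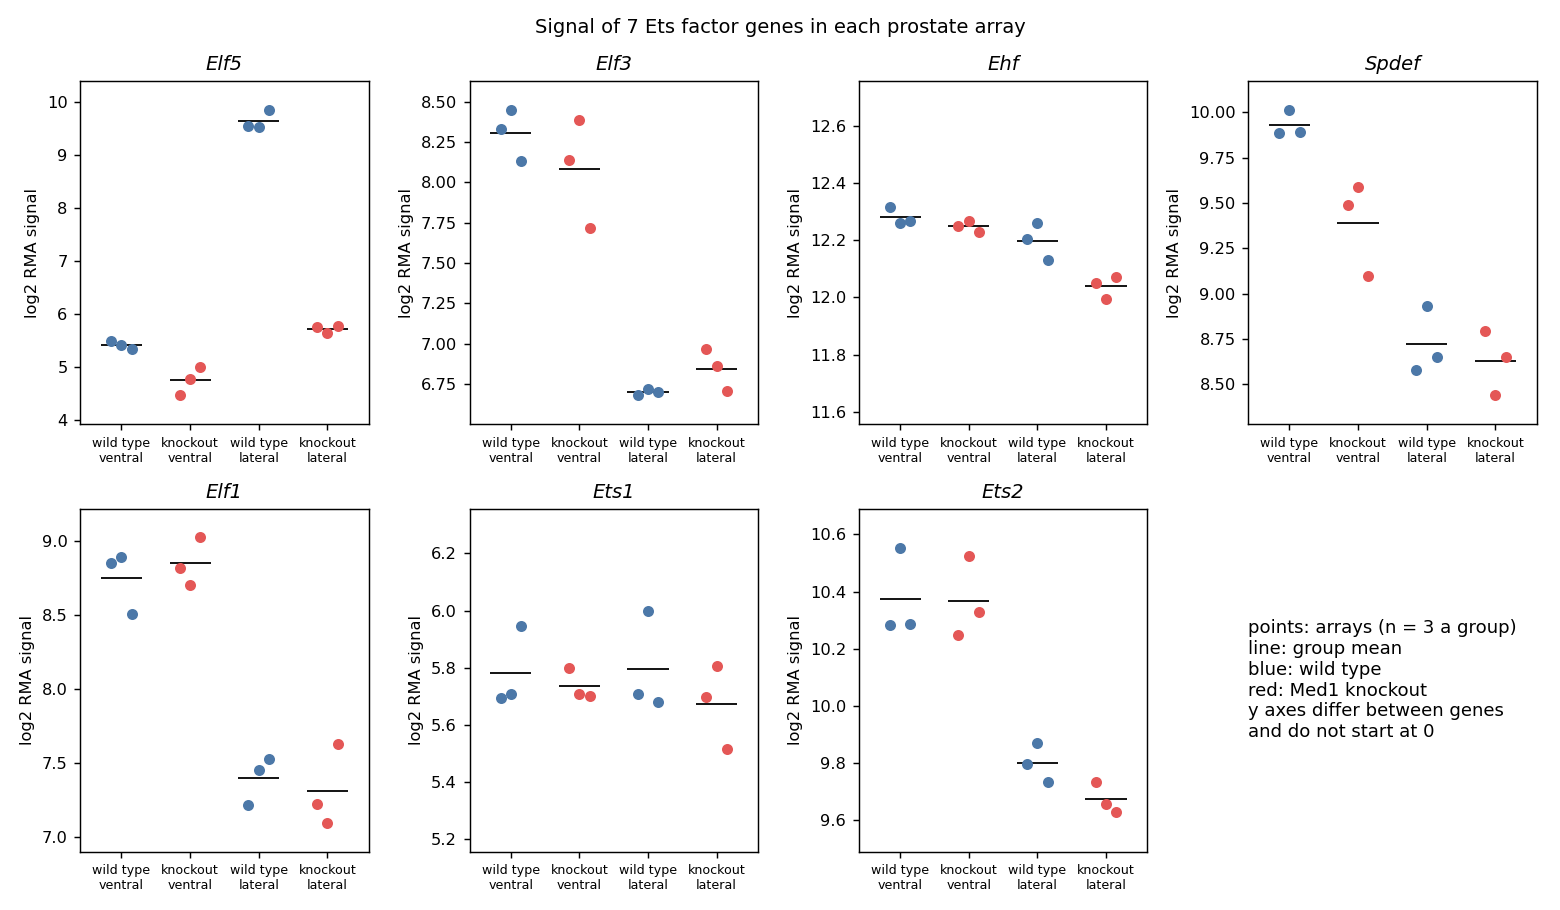
Log2 RMA signal (y axis, a separate scale for each gene, not starting at 0) of the 7 Ets factor genes in each of the 12 arrays, grouped by genotype and lobe along the x axis, with points for arrays and a line for the group mean of 3. Elf5 lies between 9.53 and 9.85 in wild-type lateral arrays and between 4.47 and 5.77 elsewhere, while Spdef, Elf3, Elf1 and Ets2 are higher in ventral than in lateral arrays as deposited. Lobe and run cannot be told apart.

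Seminal vesicle genes moved in the same direction as Elf5 between the lateral groups. Of 6 measured genes of that list (Svs2, Svs3a, Svs4, Svs5, Svs6 and Pate4), limma called 4 lower in lateral arrays labelled knockout, and all 6 had an unadjusted p under 0.05. The count was 4 without KO_LP replicate 3, 6 without WT_VP replicate 3 and 6 without both of these arrays. Their mean level ranged from 11.41 to 11.50 in wild-type lateral arrays and from 7.73 to 9.26 in those labelled knockout. In the ventral lobe it ranged from 3.81 to 5.52 in wild type and from 4.25 to 4.60 in knockout, with 5 of the 6 genes below the mark of low signal and 0 of 6 called (0 at an unadjusted p under 0.05). KO_LP replicate 3 had the lowest mean of its group, 7.73, and an Elf5 signal of 5.77, against 5.76 and 5.64 in the other two, and the lateral difference of Elf5 was -3.94 without it. Whether tissue of the seminal vesicle contributes to the Elf5 signal was not tested. In whole tissue, fewer cells of a type and less RNA per cell cannot be told apart.

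The 5 genes whose signal followed Elf5 most closely over the 12 arrays, by Pearson correlation, were Emx2os (0.987), Emx2 (0.983), Foxi1 (0.982), Crabp2 (0.981) and Cyp4a12a (0.980). These values describe a pattern set by 1 high group of 3 arrays, and the arrays share lobe and genotype. Emx2, a homeobox gene of the developing urogenital tract, averaged 3.71, 3.78, 8.15 and 4.17 in wild-type ventral, knockout ventral, wild-type lateral and lateral labelled knockout. Emx2os, the transcript opposite it, averaged 3.52, 3.22, 5.75 and 3.66. Foxi1, a forkhead factor of proton-secreting cells, averaged 3.25, 3.11, 6.403 and 3.45. Crabp2, a retinoic acid carrier, averaged 5.73, 5.77, 7.30 and 6.07, and Cyp4a12a, a fatty acid hydroxylase, 3.80, 2.85, 9.44 and 3.74. All 5 were highest in wild-type lateral arrays, as Elf5 was.

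Elf5 and Ehf lie close together on the same chromosome, so the measured genes around them were read in the order of the RefSeq table: Pdhx, Apip, Ehf, BC016548, Elf5, Cat, Abtb2, Nat10 and Caprin1. These neighbours were chosen after the values of Elf5 were known. Cat, which encodes catalase and is the next measured gene, went the other way and rose in both lobes. Its ventral signal was 10.45, 10.45 and 10.38 in wild type and 10.77, 10.93 and 11.14 in knockout (0.52 ± 0.10, limma adjusted p = 0.0063). Its lateral signal was 8.41, 8.22 and 8.45 in wild type and 9.10, 8.99 and 9.14 in arrays labelled knockout (0.72 ± 0.10, limma adjusted p = 7.35e-04). In both lobes the genotypes did not overlap. Apart from Elf5 and Cat, none of the other 7 genes passed the limma test in either lobe, with Abtb2 the nearest in ventral tissue (0.50 ± 0.17, limma adjusted p = 0.0867).

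**Figure D2:**
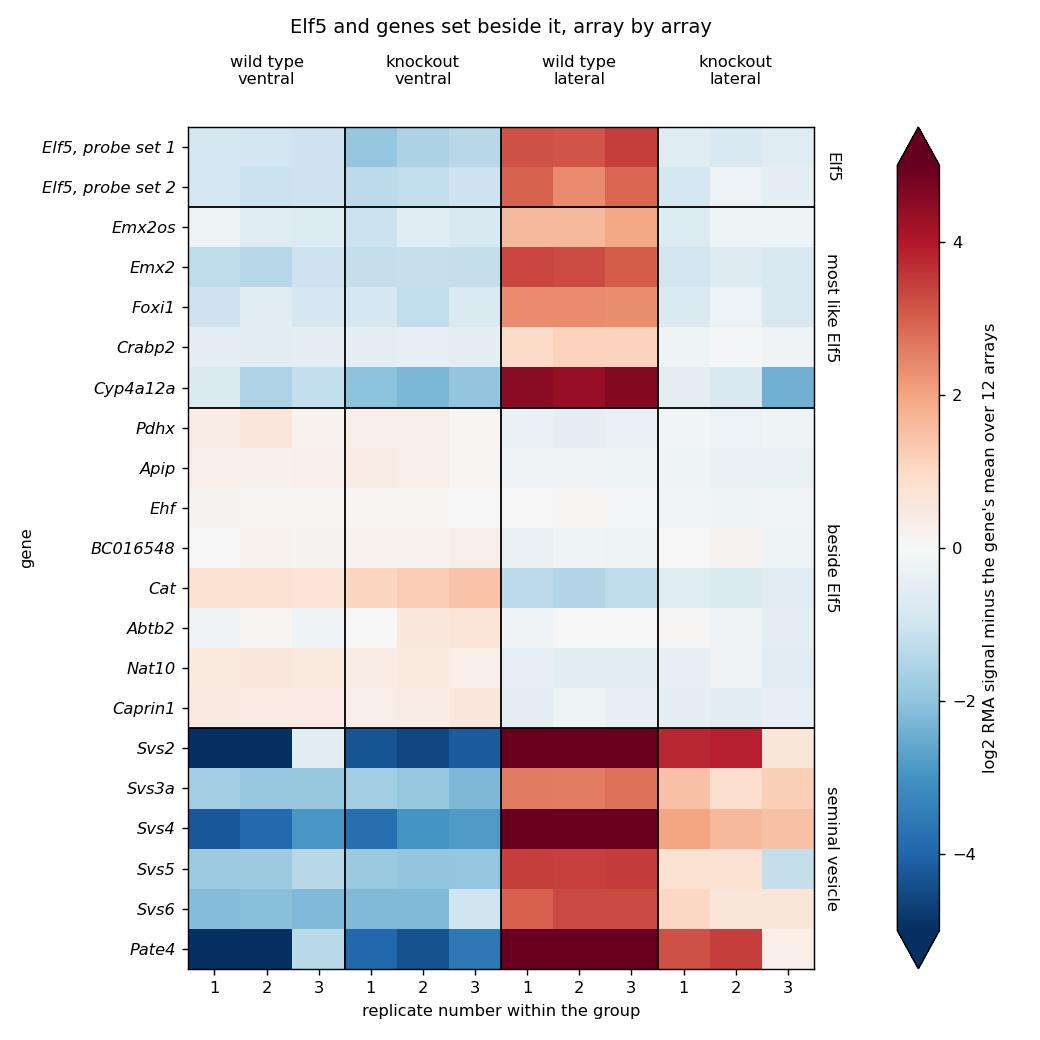
Heat map of the signal of each gene (rows) in each array (columns, replicate numbers within the 4 groups) as log2 RMA signal minus that gene's mean over the 12 arrays, with colours saturating at the ends of the bar. Both Elf5 probe sets and the 5 genes most like Elf5 are high in the 3 wild-type lateral arrays, Cat among the neighbours is higher in knockout of each lobe, and seminal vesicle genes keep part of their lateral signal in arrays labelled knockout.

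Spdef was the other member that passed in the ventral lobe. It read 9.88, 10.01 and 9.89 in wild-type and 9.49, 9.58 and 9.10 in knockout ventral arrays. The genotypes did not overlap, and KO_VP replicate 3 was the lowest of the 6. The difference was -0.54 ± 0.13 (SE; 95% interval -0.83 to -0.25), or 1.45-fold (limma adjusted p = 0.0237). The call was lost at limma adjusted p = 0.0557, 0.0746 and 0.0589 without WT_VP replicates 1, 2 and 3, at 0.0872 without KO_VP replicate 3, where the difference was -0.39, and at 0.0774 without the 2 arrays that stood apart.

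In the lateral lobe Spdef read 8.58, 8.93 and 8.65 in wild type and 8.79, 8.44 and 8.65 in arrays labelled knockout. These groups overlapped, and the difference was -0.095 ± 0.13 (95% interval -0.38 to 0.19, limma adjusted p = 0.752). The ventral effect minus the lateral effect was -0.44 ± 0.19, with a 95% interval of -0.85 to -0.035, and did not pass after adjustment (limma adjusted p = 0.162), so the lobes were not shown to differ. Spdef was read by 1 probe set, so its value has no check by another. The genes most like it over the 12 arrays were Srm, a spermidine synthase (Pearson 0.992), and Tyw1 (0.991), a tRNA-modifying enzyme. For Spdef, and for Elf3, Elf1 and Ets2 below, such correlations include the step between lobes, which cannot be told from the run. Between the wild-type lobes 68.1% of all genes passed, so likeness of this kind is common.

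Elf3, the epithelial factor known for its induction by inflammatory signals, did not pass in either lobe. Its ventral signal was 8.33, 8.45 and 8.13 in wild type and 8.14, 8.39 and 7.72 in knockout. The groups overlapped, with KO_VP replicate 3 the lowest, and the difference was -0.22 ± 0.14 (95% interval -0.53 to 0.085, limma adjusted p = 0.367). In lateral tissue it read 6.68, 6.72 and 6.70 in wild type and 6.96, 6.86 and 6.71 in arrays labelled knockout, a difference of 0.15 ± 0.14 (95% interval -0.16 to 0.45, limma adjusted p = 0.617). Those arrays overlapped as well. Its nearest patterns were those of the kinase gene Stk39 (Pearson 0.993) and Abcf1 (0.992).

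Ehf, the third factor of the epithelial branch, gave the brightest probe set among the members, and its 3 bright probe sets did not settle its lateral change. The brightest read 12.32, 12.26 and 12.27 in wild-type and 12.25, 12.27 and 12.23 in knockout ventral arrays, a difference of -0.033 ± 0.074 (95% interval -0.19 to 0.12, limma adjusted p = 0.819). In lateral arrays it read 12.21, 12.26 and 12.13 in wild type and 12.05, 12.00 and 12.07 in those labelled knockout. There the groups did not overlap, and the difference was -0.16 ± 0.074 (limma adjusted p = 0.256, and 0.0778 to 0.524 over the alternatives). The other 2 bright probe sets gave -0.31 ± 0.086 and -0.29 ± 0.090, with limma adjusted p over all probe sets of 0.0721 and 0.109. The dimmest of its 4 probe sets was at 2.65 to 2.98 in every group, below the mark of low signal. Mical3 (Pearson 0.941) and Tmed10 (0.931) had the nearest patterns.

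Elf1, the broadly expressed member, ranged from 8.50 to 8.89 in wild-type and from 8.70 to 9.02 in knockout ventral arrays, a difference of 0.10 ± 0.15 (limma adjusted p = 0.722). In lateral arrays it ranged from 7.22 to 7.52 in wild type and from 7.09 to 7.63 in those labelled knockout (-0.084 ± 0.15, limma adjusted p = 0.805). Genotypes overlapped in both lobes, and the 95% interval of the ventral difference reached from -0.22 to 0.42. Its nearest patterns were those of the chaperonin subunit Cct6a and of Nipa2 (Pearson 0.992 for each).

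Ets1 was dim, with all 12 arrays between 5.52 and 5.997. Its difference was -0.047 ± 0.11 in ventral tissue (95% interval -0.28 to 0.19, limma adjusted p = 0.833) and -0.12 ± 0.11 in lateral tissue (95% interval -0.36 to 0.11, limma adjusted p = 0.587), with overlapping genotypes in both. The 4 Ets1 probe sets did not share a direction in ventral tissue, where the mean over them was 0.14 (limma adjusted p = 0.375). Its nearest patterns were Fancc (Pearson 0.813) and Tenm3 (0.805). Of the cells in which Ets1 is chiefly made, 10 endothelial markers gave 0 limma calls in either lobe (1 at an unadjusted p under 0.05 in each). Of 7 fibroblast markers, however, 5 were called higher in ventral and 4 lower in lateral tissue. Of 9 leukocyte markers, 1 was called higher in ventral tissue and 0 were called in lateral tissue. Among all genes 9.08% passed in ventral and 5.03% in lateral tissue.

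Ets2, its close relative, ranged from 10.28 to 10.55 in wild-type and from 10.25 to 10.52 in knockout ventral arrays (-0.0073 ± 0.098, 95% interval -0.22 to 0.20, limma adjusted p = 0.975). In lateral arrays it read 9.80, 9.87 and 9.73 in wild type and 9.73, 9.66 and 9.63 in those labelled knockout. The lateral groups did not overlap, yet the difference of -0.13 ± 0.098 was small beside its error (limma adjusted p = 0.518). Ets2 had 3 probe sets, and in the dimmer ones the lateral groups overlapped. These gave -0.0043 ± 0.14 and 0.080 ± 0.13 in lateral tissue and -0.33 ± 0.14 and 0.215 ± 0.13 in ventral tissue. None passed (limma adjusted p over all probe sets from 0.204 to 0.992). Pofut1 (Pearson 0.985) and Ppm1l (0.984) had the nearest patterns.

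Counted together, 2 of the 7 genes, Elf5 and Spdef, passed as lower in the ventral lobe and 0 passed as higher, where 9.08% of all genes passed in either direction and 3.2% passed as lower. In the same lobe 2 of 7 had genotypes that did not overlap, both lower in knockout. Among all genes 29.5% did not overlap in either direction and 14.6% did so as lower. In the lateral lobe limma called 0 of the 6 genes tested (1, Ehf, at an unadjusted p under 0.05), where 5.03% of all genes passed. Of those 6 genes, Ehf and Ets2 had lateral genotypes that did not overlap, both with the lower arrays labelled knockout. Among all genes 26.9% did not overlap in either direction and 15.7% did so as lower. Elf5 did not overlap either, but it was chosen for its lateral fall and is left out of that count. For the ventral effect minus the lateral effect limma called 0 of 6 (1, Spdef, at an unadjusted p under 0.05), with 9.31% of all genes passing. The median difference of the 7 genes was -0.047 in ventral and -0.12 in lateral tissue, and that of all genes -0.020 and -0.0025. With 7 genes, the shares are coarse and each rests on 1 or a few of them.

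**Figure D3:**
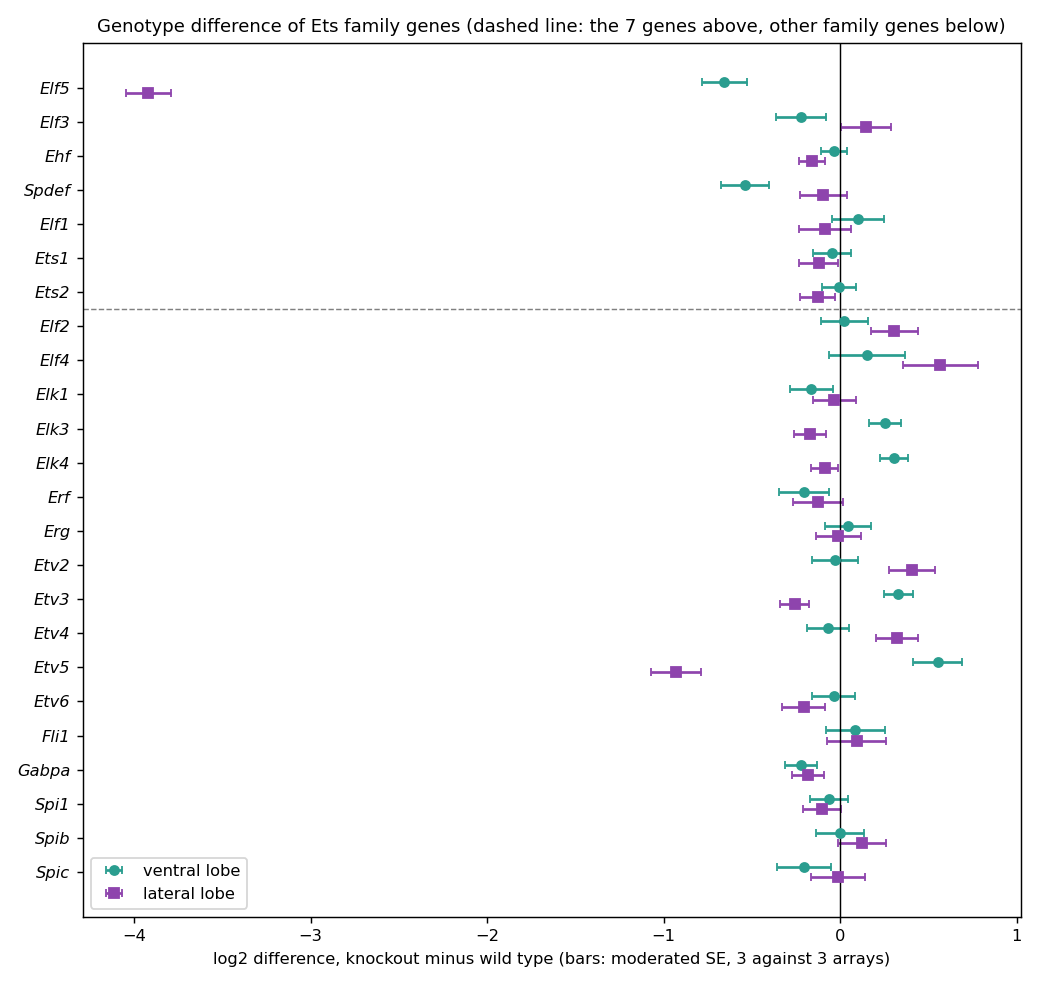
Log2 difference of knockout minus wild type (x axis) in the ventral (circles) and lateral (squares) lobe for the 7 genes, above the dashed line, and for 17 other Ets family genes, below it, with moderated standard errors as bars. Elf5 in the lateral lobe stands at -3.92, and apart from it every gene plotted lies between -0.93 and 0.57.

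Among other members of the family, 17 of 20 listed genes had a probe set, and the remaining ones were not analysed here. In ventral tissue 3 rose (Etv5 by 0.55 ± 0.14, Etv3 by 0.33 ± 0.082 and Elk4 by 0.31 ± 0.077, limma adjusted p from 0.0239 to 0.0257) and 0 fell. Each of these calls was lost on leaving out single arrays, at limma adjusted p of up to 0.0917. For Etv3 these were WT_VP replicates 1, 2 and 3 and KO_VP replicate 2, for Elk4 WT_VP replicates 1, 2 and 3 and KO_VP replicates 1 and 3, and for Etv5 WT_VP replicates 1 and 2 and KO_VP replicates 1 and 2. With all probe sets of a gene averaged, the values were 0.24 for Etv5, 0.15 for Etv3 and 0.054 for Elk4, and none passed (limma adjusted p from 0.119 to 0.680). For the ventral effect minus the lateral effect, 4 of the 17 passed (Etv5, Etv3, Elk4 and Elk3), where 9.31% of all genes did.

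In lateral tissue Etv5, a factor downstream of FGF and GDNF signalling, fell. It read 5.76, 5.56 and 5.50 in wild type and 4.63, 4.51 and 4.89 in arrays labelled knockout. Those groups did not overlap, and the difference of -0.93 ± 0.14 (limma adjusted p = 0.00121) held with each array left out, and was -0.55 with its probe sets averaged. The signal is dim, however, as the arrays labelled knockout lay near the lateral mark of low signal, 4.52, and KO_LP replicate 2 just under it. In ventral tissue the same gene read 5.22, 5.06 and 5.40 in wild type and 5.996, 5.85 and 5.49 in knockout, so its signal was higher there in knockout. Over the 17 genes the median difference was -0.00092 in ventral and -0.034 in lateral tissue, against -0.020 and -0.0025 over all genes.

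Genes linked to these factors in other tissues were then read from fixed lists, which were chosen with earlier results of these data known. Of 18 secretory-cell genes linked to Spdef, 17 were measured, and in ventral tissue 4 fell and 1 rose, with a median of -0.10, where 9.08% of all genes passed in either direction. Fcgbp, a mucus-associated protein of goblet cells, read 11.10, 10.74 and 11.10 in wild type and 8.07, 7.94 and 8.90 in knockout (-2.67 ± 0.19, limma adjusted p = 2.65e-06). The secretory-pathway factor Creb3l4 fell by 0.79 ± 0.11 (limma adjusted p = 6.10e-04) and Agr2, a disulphide isomerase needed for mucin folding, by 0.49 ± 0.087 (limma adjusted p = 0.0031). Bhlha15, a factor of secretory-cell architecture named here after its value was seen, fell by 0.32 ± 0.078 (limma adjusted p = 0.0218), a call lost without WT_VP replicates 1, 2 or 3 or KO_VP replicate 1. The same list holds Clca1, a secreted goblet cell protease, which rose from 3.99, under the mark of low signal, to 5.22 (1.23 ± 0.15, limma adjusted p = 1.77e-04, and 0.62 with its probe sets averaged). In lateral tissue 1 of 17 passed, a share near the 5.03% of all genes. This was Clca1 again, lower at 3.16 than at 4.44 and so under the lateral mark of 4.52 in both groups (-1.29, and -0.56 with its probe sets averaged).

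Of 16 genes linked to Elf5 in mammary gland and kidney, 15 were measured, with a median of -0.069 in ventral and 0.067 in lateral tissue. In ventral tissue 2 of 15 passed, where 9.08% of all genes did, and no milk protein gene was among them. Stat5a, the transcription factor of prolactin signalling, fell by 0.57 ± 0.12 (limma adjusted p = 0.0109). That call was lost with the ventral arrays alone (limma adjusted p = 0.0583), and without WT_VP replicate 3 the difference was -0.40 (limma adjusted p = 0.0278). Snai2, a repressor of the epithelial state that Elf5 represses in the mammary gland, rose by 0.69 ± 0.17 (limma adjusted p = 0.0246), a call lost without WT_VP replicates 2 or 3 or KO_VP replicate 3 at up to 0.0969. In lateral tissue 1 of 15 passed, a share near the 5.03% of all genes, and this was the receptor Kit, at 4.08 in wild type and 3.53 in arrays labelled knockout, both under the mark (-0.55 ± 0.12, limma adjusted p = 0.0192). That call was lost without WT_LP replicates 1 or 3 or KO_LP replicates 2 or 3.

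Of 18 epithelial genes linked to Elf3 and Ehf, 17 were measured, and 4 rose and 1 fell in ventral tissue, where 9.08% of all genes passed. The rises were in the keratin Krt4 (1.07 ± 0.13, limma adjusted p = 1.64e-04), the tetraspanin Cd9 (0.60 ± 0.080, limma adjusted p = 3.99e-04), the TGF-beta receptor Tgfbr2 (0.49 ± 0.092, limma adjusted p = 0.0049) and the prostaglandin synthase Ptgs2 (1.01 ± 0.22, limma adjusted p = 0.0103). Ptgs2 went from 3.39 to 4.40, both under the mark, and its call was lost without KO_VP replicate 3 (limma adjusted p = 0.0526). With its probe sets averaged Tgfbr2 was at 0.17 and did not pass (limma adjusted p = 0.170). Cldn7, a tight junction claudin named after its value was seen, fell by 0.47 ± 0.14 (limma adjusted p = 0.0478), and this was lost in 11 of 12 fits with 1 array left out, all but that without KO_VP replicate 2.

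In lateral tissue 4 genes of that list fell and 0 rose, where 5.03% of all genes passed. Lcn2, an iron-scavenging lipocalin, read 8.53, 8.34 and 8.56 in wild type and 6.81, 6.66 and 6.75 in arrays labelled knockout (-1.74 ± 0.12, limma adjusted p = 1.19e-06). Sprr1a, a component of the cornified envelope, fell by 1.34 ± 0.16 (limma adjusted p = 1.72e-04). Ly6d fell by 0.40 ± 0.099 (limma adjusted p = 0.033) and Cd9 by 0.34 ± 0.080 (limma adjusted p = 0.0229). Both of these calls were lost without WT_LP replicates 1, 2 or 3 or KO_LP replicate 3, and that of Ly6d also without KO_LP replicate 2. The medians over the list were -0.083 in ventral and -0.055 in lateral tissue.

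Of 12 protease and inhibitor genes with known Ets control, 11 were measured, and 2 passed in each lobe, where 9.08% of all genes passed in ventral and 5.03% in lateral tissue. This list, too, was chosen with earlier results of these data known, so its shares and p-values are no independent test. In lateral tissue Plau, the urokinase plasminogen activator and a classic Ets1 and Ets2 target, read 10.77, 10.50 and 10.97 in wild type and 5.68, 6.22 and 5.17 in arrays labelled knockout. The difference was -5.05 ± 0.23 (limma adjusted p = 1.21e-08). In ventral tissue the matrix protease Mmp7, made by prostate epithelium, fell by 2.12 ± 0.12 (limma adjusted p = 5.18e-07). The gelatinase Mmp2, made by stroma, rose by 0.73 ± 0.16 in ventral tissue (limma adjusted p = 0.0111, and 0.0520 without KO_VP replicate 3). In lateral tissue Mmp2 fell by 0.58 ± 0.16 (limma adjusted p = 0.0489), a call lost in 10 of 12 fits with 1 array left out, all but those without KO_VP replicates 2 or 3.

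**Figure D4:**
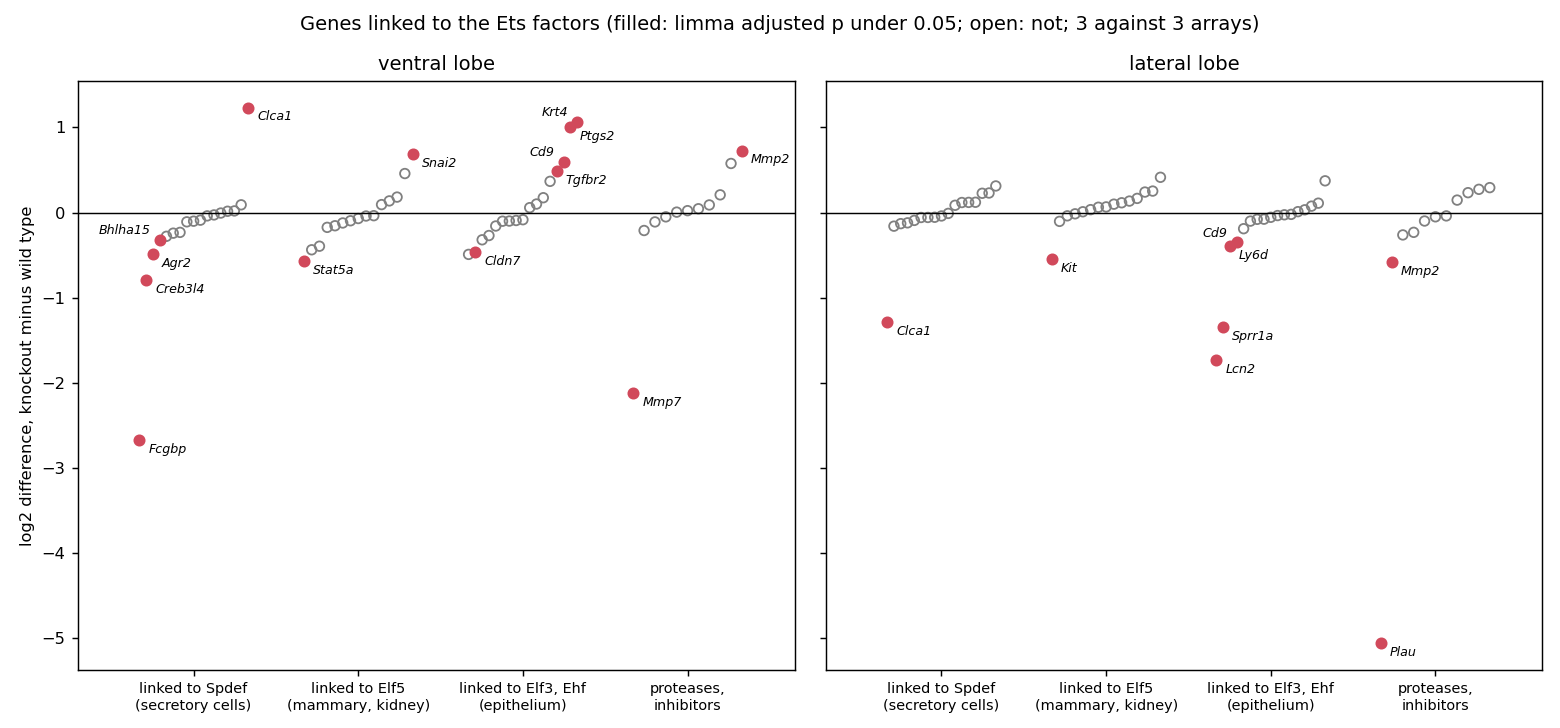
Log2 difference of knockout minus wild type (y axis) for each measured gene of the 4 lists of linked genes (x axis) in the ventral (left) and lateral (right) lobe, with filled points for a limma adjusted p under 0.05, open points otherwise, and genes sorted by value within a list. Fcgbp (-2.67) and Mmp7 (-2.12) are lowest in the ventral lobe, Plau (-5.05) in the lateral lobe, and most points lie close to 0.

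Stromal markers moved with the genotypes in opposite directions in the lobes, beside the gene groups above. Of 8 smooth muscle markers limma called 5 higher in ventral knockout and 4 lower in lateral arrays labelled knockout, and of 7 fibroblast markers 5 higher and 4 lower, where 9.08% and 5.03% of all genes passed in either direction. With 1 array left out the smooth muscle counts ranged from 3 to 5 in ventral and from 1 to 6 in lateral tissue, and the fibroblast counts from 3 to 5 and from 2 to 4. The smooth muscle count was 3 in ventral tissue without WT_VP replicates 2 or 3 or KO_VP replicates 1 or 2, and 1 in lateral tissue without WT_LP replicate 3 or KO_LP replicate 2. The fibroblast count was 3 in ventral tissue without WT_VP replicate 2 or KO_VP replicates 1 or 3, and 2 in lateral tissue without WT_LP replicate 3. With probe sets averaged it was 1 in lateral tissue. The mean smooth muscle level ranged from 10.12 to 10.37 in wild-type and from 10.59 to 10.86 in knockout ventral arrays, and from 11.50 to 11.61 and from 10.93 to 11.24 in lateral ones. The mean fibroblast level ranged from 8.83 to 9.11, 9.38 to 9.51, 9.18 to 9.29 and 8.64 to 8.89 in the same order. Neither list had a gene under the mark of low signal. Of 6 basal epithelial markers, 0 were called in ventral tissue (4 at an unadjusted p under 0.05) and 1 was lower in lateral tissue. Of 9 leukocyte markers 1 was higher in ventral tissue, and of 6 urothelial markers 2 were higher in lateral tissue. The part of these cells in the values of Spdef, Elf5, Snai2, Mmp2 and Etv5 was not tested.

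Between the lobes of wild-type mice Elf5 was higher in lateral tissue, while 4 of the 6 other members were lower there. Elf5 was higher in lateral than in ventral tissue by 4.23 log2 units (18.8-fold), given without a test, and by 4.64 and 4.59 after quantile normalization and median centring over all arrays. Of the 6 members tested, 4 were lower in lateral tissue: Elf3 by -1.60 ± 0.14, Elf1 by -1.35 ± 0.15, Spdef by -1.21 ± 0.13 and Ets2 by -0.57 ± 0.098 (limma adjusted p at most 1.46e-04). The background is wide, since 55.8% of all genes passed as lower in lateral tissue and the median of all genes was -0.34. After quantile normalization over all arrays Elf3 was at -1.15, Elf1 at -0.87 and Spdef at -0.66, and median centring gave -1.25, -0.99 and -0.85. All 3 stayed lower under both. These scalings act on whole arrays and cannot remove a difference between runs in a single gene. Lobe and run therefore still cannot be told apart for any member.

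The other 3 members depend on the scaling. Ets2 was at -0.016 (limma adjusted p = 0.891) after quantile normalization and at -0.21 (0.0869) after centring. Ehf was at -0.083 ± 0.074 as deposited (limma adjusted p = 0.328), at 0.29 (0.0026) after quantile normalization and at 0.28 (0.0052) after centring. As deposited, its next brightest probe set was at -0.18 ± 0.090 (limma adjusted p over all probe sets = 0.0984). The dimmer of its bright probe sets was higher in lateral tissue, by 0.71 ± 0.086 (7.81e-06). Ets1 was at 0.012 ± 0.11 as deposited (limma adjusted p = 0.926), at 0.34 (0.0165) and at 0.37 (0.0090). The split of all called genes turned too, from 2240 higher and 10144 lower as deposited to 5770 and 4673 after quantile normalization and 5574 and 5250 after centring.

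As deposited, the order of the 4 groups differed between members, though lobe and run cannot be told apart. For Elf5 wild-type lateral was highest, followed by lateral labelled knockout (5.72), wild-type ventral (5.41) and knockout ventral (4.76), and only the last of these neighbours was tested. For Spdef the order was wild-type ventral (9.93), knockout ventral (9.39), wild-type lateral (8.72) and lateral labelled knockout (8.63), with the lateral pair not differing beyond their spread. For Elf3, Elf1 and Ets2 both ventral groups lay above both lateral groups, and within each lobe the genotypes did not differ beyond their spread by the limma test. After quantile normalization over all arrays the wild-type lobe difference of Ets2 was -0.016 (limma adjusted p = 0.891). For Ehf and Ets1 the 4 group means lay within 12.04 to 12.28 and 5.67 to 5.80.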

How the data were processed

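The deposited table holds log2 signals of 45101 probe sets on 12 arrays, to which the authors had applied RMA in Affymetrix Expression Console, per the submitters' processing notes (versions: not given in the sources used here). Probe sets were named through the platform annotation, which gave 34958 of them 1 symbol, updated through Entrez identifiers to RefSeq symbols (34754 matched). For each of 18194 genes the brightest probe set over all arrays was kept.

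R 4.3.3 and limma 3.58.1 were used to fit 4 group means over all 12 arrays (8 residual and 5.68 prior degrees of freedom) and test differences, with Benjamini-Hochberg adjustment over all genes and a threshold of 0.05. The steps were tested on simulated data. Errors are moderated standard errors. The members and lists were chosen with earlier results of these data known. Named genes were the members, up to 4 called genes of smallest p per list and lobe, all called Ets family genes, and the 5 genes most correlated with Elf5 and 2 with each other member. Promoter windows come from RefSeq on GRCm38.p6. Array medians lay between 6.39 and 6.43 in ventral and 6.05 and 6.06 in lateral arrays, and arrays of a group correlated at 0.992 to 0.996. Arrays give no read depth, and their number limits the precision. Alternatives were a fit on the compared arrays alone, a block for the replicate number, other normalization, a filter on dim genes, other handling of probe sets, another variance model, a stricter threshold and arrays left out. Leaving out an array of the other lobe keeps a genotype difference within a lobe unchanged and alters only the shared estimate of error.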

Additional observations from a re-analysis of the deposited data

Results flagged for a closer look

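Among the genes of the linked lists, 17 had a genotype difference that differed between the lobes by limma's interaction test, which 9.31% of all genes passed. These were 4 of 17 other Ets family genes, 3 of 17 linked to Spdef and 1 of 15 linked to Elf5. The rest were 5 of 17 linked to Elf3 and Ehf and 4 of 11 protease and inhibitor genes. The lists were chosen with earlier results of these data known, and these calls were not refitted with arrays left out. Values are the ventral minus the lateral difference in log2 units. Members of the Ets family were Etv5 at 1.48 ± 0.20, Etv3 at 0.59 ± 0.12, Elk4 at 0.39 ± 0.11 and Elk3 at 0.43 ± 0.13 (SE, limma adjusted p = 4.37e-04, 0.00639, 0.0383 and 0.0497), and Elk3 passed in neither lobe by itself. Among secretory-cell genes these were Fcgbp at -2.62, Clca1 at 2.52 and Creb3l4 at -0.70, with limma adjusted p of at most 0.0133. Fcgbp read 13.58 to 13.75 in all 6 lateral arrays, where the brightest probe set of any lateral array read 14.1, and Clca1 was under the mark of low signal in every group but ventral knockout. The milk protein gene Wap, linked to Elf5, was at -0.81 ± 0.19 (limma adjusted p = 0.0172). Epithelial genes linked to Elf3 and Ehf were Lcn2 at 2.10, Krt4 at 1.26, Cd9 at 0.94, Sprr1a at 0.85 and Tgfbr2 at 0.56, with limma adjusted p of at most 0.0323. Among proteases these were Plau at 5.63, Mmp7 at -2.02, Mmp2 at 1.31 and Mmp14 at 0.44, with limma adjusted p of at most 0.0484. Mmp7, like Fcgbp, was bright in all 6 lateral arrays, at 12.88 to 13.09. The signs were opposite in the lobes for Etv5, Etv3, Elk4, Elk3, Clca1, Wap, Krt4, Cd9, Tgfbr2, Lcn2, Mmp2, Mmp14 and Plau, though both lobes passed by limma for Etv5, Clca1, Cd9 and Mmp2 only. None of the 6 members tested was among these genes, and Elf5, at 3.26, was not tested.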

How the results depend on the processing

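The fall of Elf5 in the ventral lobe kept its direction and its call under all 23 alternatives, at -0.79 to -0.43. These used its brightest probe set or the mean of both, never the second alone. The second by itself did not pass (-0.19, limma adjusted p over all probe sets = 0.544). In the brightest, the knockout mean of 4.76 lay at the mark of low signal, 4.73. Spdef kept its direction, at -0.64 to -0.39, and its call under 16 of 23, so the count of called members in ventral tissue was 1 in place of 2 with the ventral arrays alone (where Spdef had a limma adjusted p of 0.05002), at an adjusted p under 0.01 and without the 2 arrays that stood apart, a choice made after seeing the data, and lay between 1 and 2 with single arrays left out. No lateral or interaction call of a member appeared under any alternative.

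Ventral counts of called genes were 1652 as reported, 965 with the ventral arrays alone, 666 at the stricter threshold, 860 without both arrays and 941 to 1760 with 1 array left out. Lateral counts were 916, with 396 at the stricter threshold, 583 without both arrays and 499 to 1168 with 1 left out. Interaction counts were 1693, with 723, 973 and 1103 to 1732.

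Signs turned for values near 0. With probe sets averaged they turned for Ets1 in ventral tissue (0.14), Elf1 in lateral tissue (0.067), Ets2 in the interaction (-0.023), and Ehf (0.14) and Ets1 (-0.12) between lobes, where Ehf was also 0.29 after quantile normalization and 0.28 after centring. With 1 array left out, the ranges were -0.021 to 0.17 for Elf1, -0.090 to 0.035 for Ets1 and -0.085 to 0.081 for Ets2 in ventral tissue, -0.24 to 0.026 for Elf1 and -0.18 to 0.011 for Spdef in lateral tissue, -0.026 to 0.16 for Ets1 in the interaction and -0.088 to 0.094 for Ets1 between lobes. Without both arrays that stood apart, ventral Elf1 was -0.021 and Ets1 0.035. The cause was not tested.

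Same-numbered arrays deviated together weakly at most (correlations of -0.061 to 0.12). With 3 arrays a group, this cannot tell whether equal numbers mark shared animals. The blocks below joined same-numbered arrays within a lobe, and none joined arrays of different lobes. With the number as a fixed replicate block 1465 ventral, 823 lateral and 1485 interaction calls were made, with a random one 1729, 961 and 1796, and no member's call changed. The fixed block ended the ventral calls of Etv3, Elk4 and Bhlha15 and the lateral calls of Cd9 and Ly6d (limma adjusted p of 0.0508 to 0.0707). Ets1, among the dimmest 40% of genes, had no value in the fit without them. With 3 arrays a group, small differences such as those of Ehf and Ets2 are at the limit of the precision.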
